A study of Homo sapiens with 3 samples.

Results

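The Arp2/3 complex, the machine that starts branched actin filaments, was followed in HT29 cells on 3 substrates. HT29 is a long-established cell line from a human colon adenocarcinoma. The cells carried no engineered change in this experiment and were grown on tissue culture polystyrene (TCP), on chitosan membranes (CS) or on chitosan membranes grafted with hyaluronan (CSHA). Chitosan is a polysaccharide made from chitin, and hyaluronan is a polysaccharide of the extracellular matrix. RNA of each substrate was labelled with Cy3 and hybridized to 1 single-colour array, so every difference below compares one array with another, has no replicate check and carries no p-value. The time in culture before the RNA was taken for the arrays is not given in the sources used here. RNA came from whole cultures, in which fewer cells of a kind and less RNA per cell cannot be told apart.

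In all, 10 of the 21610 genes with a matched probe were studied. They were the 9 genes that encode subunits of the complex (ACTR2, ACTR3, ARPC1A, ARPC1B, ARPC2, ARPC3, ARPC4, ARPC5 and ARPC5L) and CTTN, which encodes cortactin. The genes were picked by name with the signals of these 3 arrays already known, so the signal values on TCP, CS and CSHA belong to what the members were chosen by, and they are given here as a description. The 10 genes had 14 probes, and all 14 were well above background on all 3 arrays by the flag of the scanner software.

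Arp2/3 binds the side of an existing actin filament and starts a daughter filament there, which gives the branched network that pushes lamellipodia forward and moves endosomes. A complete complex holds 7 subunits. ACTR2 and ACTR3 are the actin-related proteins that mimic the first subunits of the new filament, ARPC2 and ARPC4 form the core that grips the mother filament, and ARPC3 links ACTR3 to that core. The remaining places are filled by either of a pair of paralogs, ARPC1A or ARPC1B and ARPC5 or ARPC5L, so that complexes of different composition exist in a cell. The complex is inactive until a nucleation promoting factor of the WASP or WAVE family, itself switched on by Cdc42 or Rac, binds it. Cortactin binds both the complex and the filament and keeps branches from coming apart.

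The ARPC5 pair is shown by its promoters, because these paralogs fill the same place in the complex and differed in opposite directions on CS. On CSHA the directions were also opposite, but the second ARPC5 probe differed from TCP by only 0.07 (log2). The sequences are the 250 bases before the start of each gene in RefSeq (GRCh38.p14), written 5′ to 3′ on the strand of the gene. ARPC5 lies on the minus strand, at chr1:183635784-183636033, and ARPC5L on the plus strand, at chr9:124861880-124862129. Capitals mark each CCAAT box (CCAAT) and each GC box (GGGCGG), searched on both strands.
ARPC5: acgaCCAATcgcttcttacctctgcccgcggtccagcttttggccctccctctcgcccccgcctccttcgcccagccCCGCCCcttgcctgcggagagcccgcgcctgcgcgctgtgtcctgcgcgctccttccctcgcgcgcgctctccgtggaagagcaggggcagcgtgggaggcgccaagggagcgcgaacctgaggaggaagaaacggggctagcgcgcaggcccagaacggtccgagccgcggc
ARPC5L: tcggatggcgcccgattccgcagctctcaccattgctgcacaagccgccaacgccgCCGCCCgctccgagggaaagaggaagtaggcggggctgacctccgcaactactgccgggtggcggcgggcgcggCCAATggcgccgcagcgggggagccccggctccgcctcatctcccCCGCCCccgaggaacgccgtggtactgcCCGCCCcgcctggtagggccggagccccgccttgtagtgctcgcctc
Each window held 1 CCAAT box, a motif found in 32.0% of 35116 promoter windows of the same length. ARPC5 had 1 GC box and ARPC5L had 3, and 42.6% of the windows held at least 1. Neither window held the CArG box of serum response factor, which was found in 1.16% of the windows. The share of G and C was 72% for ARPC5 and 73.6% for ARPC5L, and the letters of the windows say nothing of which factor was bound. The genes of the other pair, ARPC1A and ARPC1B, are neighbours on chromosome 7 with 0 protein-coding genes between them, while ARPC5 and ARPC5L lie on chromosomes 1 and 9.

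Each array had 62976 spots, none of them saturated, and 50599 probes other than controls. After 31 probes were lost to outlier flags, 48.6% to 51.1% of the rest were well above background. Signals were put on a common scale as the log2 of the processed signal minus the 75th percentile of the array, which was 354 (TCP), 423 (CS) and 337 (CSHA). The 7 spike-in probes were dimmer on CSHA, with a mean log2 signal of 12.0 against 12.5 on TCP and 12.7 on CS, and scaling to them raises every CSHA value. Because of the percentile shift, an equal raw signal on TCP and CS corresponds to a lower scaled value on CS. Without replicate arrays, 2 technical errors stand in. The first is the spread among spots of probes printed 10 times, which came to between 0.04 and 0.07 (log2) for the difference of a member's brightest probe. The second is the error that the scanner software assigns to a spot, about 10% of the signal or 0.20 to 0.21 on a log2 difference. Neither covers the differences between cultures. The 12 colon epithelial markers examined, such as EPCAM, CDH1 and KRT20, were well above background on all 3 arrays. On either membrane 10 of them were higher than on TCP, with median differences of 0.19 and 0.36. Of 9 stromal markers, 0 were well above background on all arrays and 6 were on none. SPARC and VIM were barely above it on TCP alone, at signals of 29.5 and 24.7, and PDGFRB reached 90.3 on CSHA alone. Of 7 immune markers, PTPRC, CD68 and CORO1A were measured on all arrays, and 2 were above background on none. CD68 was 0.80 higher on CS and 1.01 higher on CSHA. CD3E had a signal of 122 on TCP, failed the flag on CS at 20.6 and had 34.4 on CSHA, a difference from TCP of -1.76. CORO1A and HCLS1 of that list also stand in the lists of actin genes below. The part of such signals in the differences below was not tested.

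On both membranes the variants ARPC1B and ARPC5L had the lowest differences from TCP among the members. On CS, 7 members were higher than on TCP and 3 were lower, with a median log2 difference of 0.09 and a range from -0.39 for ARPC5L to 0.45 for ACTR2. On CSHA, 7 were higher and 3 were lower, with a median of 0.21 and a range from -1.16 for ARPC1B to 0.37 for ACTR2. Between the membranes, 4 members were higher on CSHA and 6 were lower than on CS, with a median of -0.01. With spike-in scaling, 8 were higher and 2 lower for CSHA against either TCP or CS, with medians of 0.64 and 0.37. With the next brightest probe, 5 were higher and 5 lower for CSHA against TCP, with a median of -0.0038. The difference was larger than the spread among spots for 8 members on CS and for 10 on CSHA, and larger than the error of the software for 4 and 7 of them. Genes measured on both arrays had a median of 0.04 for CS and 0.12 for CSHA, both against TCP, and of 0.07 for CSHA against CS. Relative to these medians, 6 members lay above on CS and 6 on CSHA.

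By the rule of size, at least 2-fold, 0 of the 10 members were past it on CS. Of 14462 genes compared between CS and TCP, 1.36% were at least 2-fold higher on CS and 1.94% at least 2-fold lower. On CSHA against TCP, 0 members were 2-fold higher and 1, ARPC1B, was 2-fold lower, where 3.02% and 3.99% of 14624 genes passed in these directions. Between the membranes 0 members passed in either direction, where 2.27% of 14597 genes were 2-fold higher on CSHA and 2.15% lower. Both membranes were set against the same TCP array, so its error enters both comparisons. The members entered with their values known, so nothing is read from these counts.

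**Figure D1:**
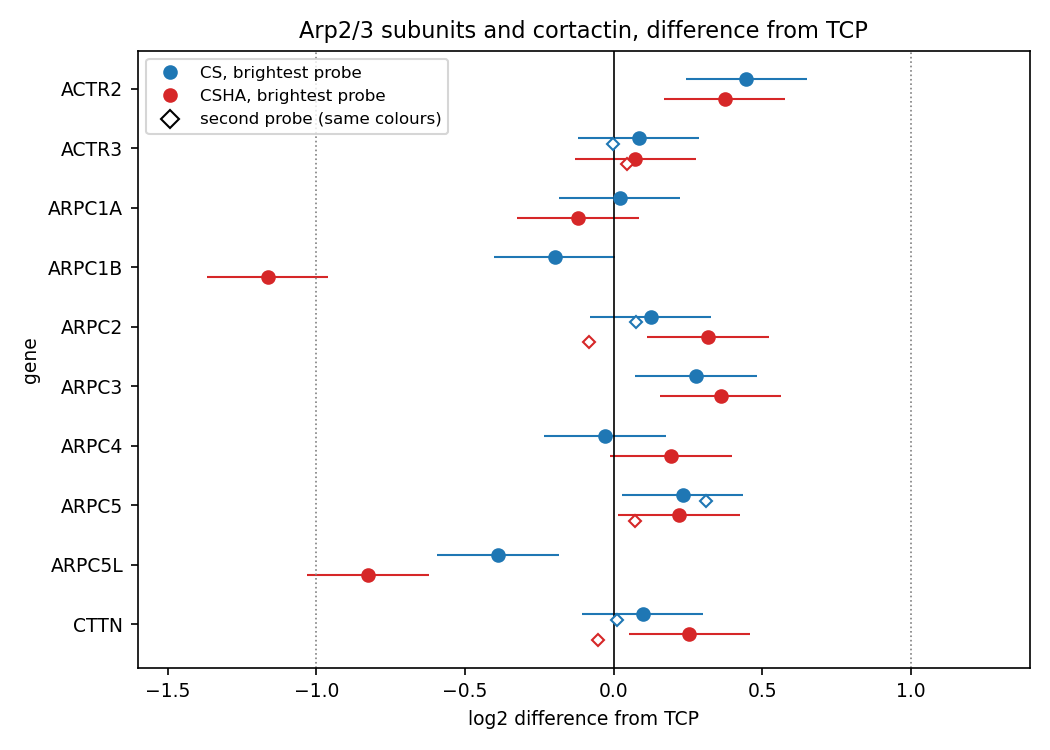
Log2 difference of each gene from TCP for CS (blue) and CSHA (red). Filled circles are the brightest probe of a gene with the error that the scanner software assigns to the difference, open diamonds are the second probe where a gene has one, and dotted lines mark 2-fold. On CSHA, ARPC1B (-1.16) and ARPC5L (-0.83) lie to the left of all other members.

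Among the actin-related proteins, ACTR2 was higher on both membranes and ACTR3 differed little. ACTR2 (NM_001005386) had processed signals of 2988 (TCP), 4864 (CS) and 3691 (CSHA). On the common scale these were 3.08, 3.52 and 3.45, which made ACTR2 1.36-fold higher on CS and 1.30-fold higher on CSHA. TCP was the low array and the membranes were close together, with a gap of 0.07 between them against a spread among spots of 0.06. Its difference on CS stood at percentile 94.3 of 13639 genes measured on both arrays, and at percentile 77.4 of 13527 genes on CSHA.

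ACTR3 (NM_005721), the partner of ACTR2 at the start of the new filament, has 1 probe printed once and 1 printed 10 times. The probe printed once gave 9236 (TCP), 11694 (CS) and 9265 (CSHA), with scaled differences from TCP of 0.08 and 0.07. The 10 spots of the other lay at 8625 to 9549 (TCP), 10152 to 11361 (CS) and 8454 to 9372 (CSHA). Scaled to the arrays, the 10 spots overlapped between all 3 substrates, and their means differed from TCP by -0.00 on CS and 0.04 on CSHA, within a spread of 0.07. On the probe with the most spots ACTR3 thus stayed within the spread among spots, while the difference of ACTR2, measured by 1 spot, went past it.

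Of the core subunits, with the percentile shift, ARPC2 was higher on CSHA by its brighter probe alone, and ARPC4 showed small differences. For ARPC2 (NM_152862), the 10 spots of the brighter probe lay at 31483 to 33388 (TCP), 41445 to 43739 (CS) and 36888 to 40096 (CSHA). Their scaled means were 6.52, 6.64 and 6.83. The probe thus gave differences from TCP of 0.12 for CS and 0.32 for CSHA, both beyond the spread among spots of 0.04 and 0.05. The difference on CSHA was also past the software error of 0.20. This order, TCP below CS below CSHA, was not that of the second probe of the gene. The second probe had signals of 2102, 2644 and 1892, and its differences from TCP were 0.07 on CS and -0.08 on CSHA.

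ARPC4 (NM_005718) had signals of 468 (TCP), 548 (CS) and 510 (CSHA). It was 0.19 higher on CSHA than on TCP, inside the software error of 0.21, and its difference of -0.03 on CS was smaller than the spread among spots. Substrates CS and TCP could thus not be ordered for ARPC4.

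ARPC3 (NM_001278556), the small subunit that holds ACTR3 to the core, was higher on both membranes. Its signals were 26158 (TCP), 37854 (CS) and 32018 (CSHA). The scaled differences from TCP were 0.28 on CS and 0.36 on CSHA, or 1.21-fold and 1.28-fold, both larger than the software error. The gap between CS and CSHA, 0.08, was larger than the spread among spots of 0.06 and smaller than the software error.

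**Figure D2:**
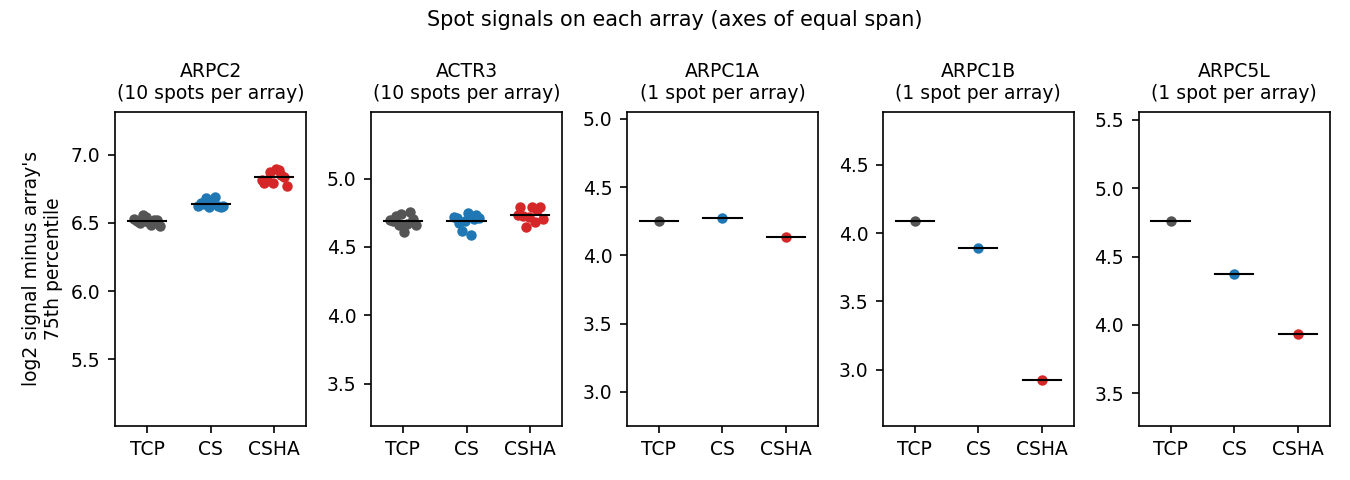
Spot signals on each array for 5 genes, as log2 of the processed signal minus the 75th percentile of the array, with black lines at the mean. ARPC2 and ACTR3 are shown by a probe with 10 spots per array and the others by 1 spot. The ACTR3 spots overlap on all substrates, the ARPC2 spots are highest on CSHA (mean 6.83), and ARPC1B lies at 4.09 on TCP and 2.93 on CSHA.

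The ARPC1 pair split on CSHA. These paralogs are WD-repeat proteins that sit where the complex meets its activators, and ARPC1B is the form best known from blood cells. ARPC1A (NM_006409) had signals of 6754 (TCP), 8182 (CS) and 5927 (CSHA). Its scaled differences from TCP were 0.02 on CS and -0.12 on CSHA, the latter about 1.09-fold lower and inside the software error. With spike-in scaling the value on CSHA turned to 0.32, past that error, so its sign depended on the scaling.

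ARPC1B (NM_005720) had signals of 6034 (TCP), 6283 (CS) and 2568 (CSHA). Scaled, these were 4.09, 3.89 and 2.93, so the CSHA array was the low one and the other arrays were near each other. The difference from TCP was -0.20 on CS, smaller than the software error, and -1.16 on CSHA, or 2.24-fold lower. CSHA was also 1.95-fold lower than CS, a log2 difference of -0.97. The difference on CSHA stood at percentile 1.99 of all genes measured on both arrays, and that on CS at percentile 18.8. With scaling to the spike-in probes in place of the 75th percentile it was -0.73, which is below 2-fold, and the median of all genes was then 0.55.

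The change of ARPC1B minus the change of ARPC1A does not depend on any constant shift of an array. It was -0.22 on CS and -1.04 on CSHA, both against TCP, and -0.83 between CSHA and CS, with a software error of 0.29. The value on CS was inside that error and the other values were past it. Across the main setting and 10 alternatives it stayed between -1.09 and -1.03 for CSHA against TCP. Only quantile normalization, normexp background correction and the deposited log2 values could move it. Constant shifts cancel in it, the filters kept the same probes, and both genes have 1 probe.

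ARPC1B rests on 1 probe and 1 spot per array. Around that spot, within 5 rows and columns, 51 spots measured on CSHA and TCP had a median difference of 0.05, and 2 of them were at least 2-fold lower on CSHA. Genes with 2 measured probes show how far a single probe carries. Over 3498 such genes the probes differed in their CSHA change by a median of 0.32. Of 63 of these genes that were 2-fold lower on CSHA by the brighter probe, the second probe was also lower for 36 (57.1%) and also 2-fold lower for 12 (19.0%). Whether a second probe would give the same value for ARPC1B was not tested.

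The ARPC5 pair differed in opposite directions. These small subunits tether ACTR2 to the rest of the complex. ARPC5 has 2 probes of similar signal, assigned to different transcripts. The first (NM_001270439) had signals of 14132 (TCP), 19832 (CS) and 15696 (CSHA), and the second (NM_005717) had 14226, 21069 and 14251. On CS the probes gave differences from TCP of 0.23 and 0.31, both past the software error. On CSHA they gave 0.22 and 0.07, and only the first was past it. ARPC5 was thus higher on CS by both probes, while its place on CSHA depended on the probe.

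ARPC5L (NM_030978) had signals of 9608 (TCP), 8760 (CS) and 5167 (CSHA), and its scaled values of 4.76, 4.37 and 3.94 stepped down from TCP to CS to CSHA. It was 1.31-fold lower on CS and 1.77-fold lower on CSHA than on TCP, with log2 differences of -0.39 and -0.83. CSHA was 1.35-fold lower than CS. All 3 gaps were larger than the software error. The differences stood at percentile 7.60 on CS and 5.28 on CSHA. Scaled to the spike-in probes, the difference on CSHA was -0.39 against TCP and -0.05 against CS. ARPC5L, like ARPC1B, rests on 1 probe and 1 spot per array, and whether a second probe would give the same values was not tested. Within 5 rows and columns of its spot, 59 spots had a median difference of 0.08 on CSHA, and 4 were at least 2-fold lower.

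The change of ARPC5L minus the change of ARPC5 was -0.62 on CS and -1.05 on CSHA against TCP, and -0.42 between CSHA and CS. With the second ARPC5 probe the values were -0.70, -0.90 and -0.20, of which the last lay inside the software error of 0.29. By its single probe, ARPC5L was thus lower relative to its paralog on both membranes, with either probe of ARPC5. Between the low members, the change of ARPC1B minus that of ARPC5L was 0.19 on CS, inside that error. It was -0.34 on CSHA against TCP and -0.53 against CS, both past it, so ARPC1B had the larger difference of the pair on CSHA.

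**Figure D3:**
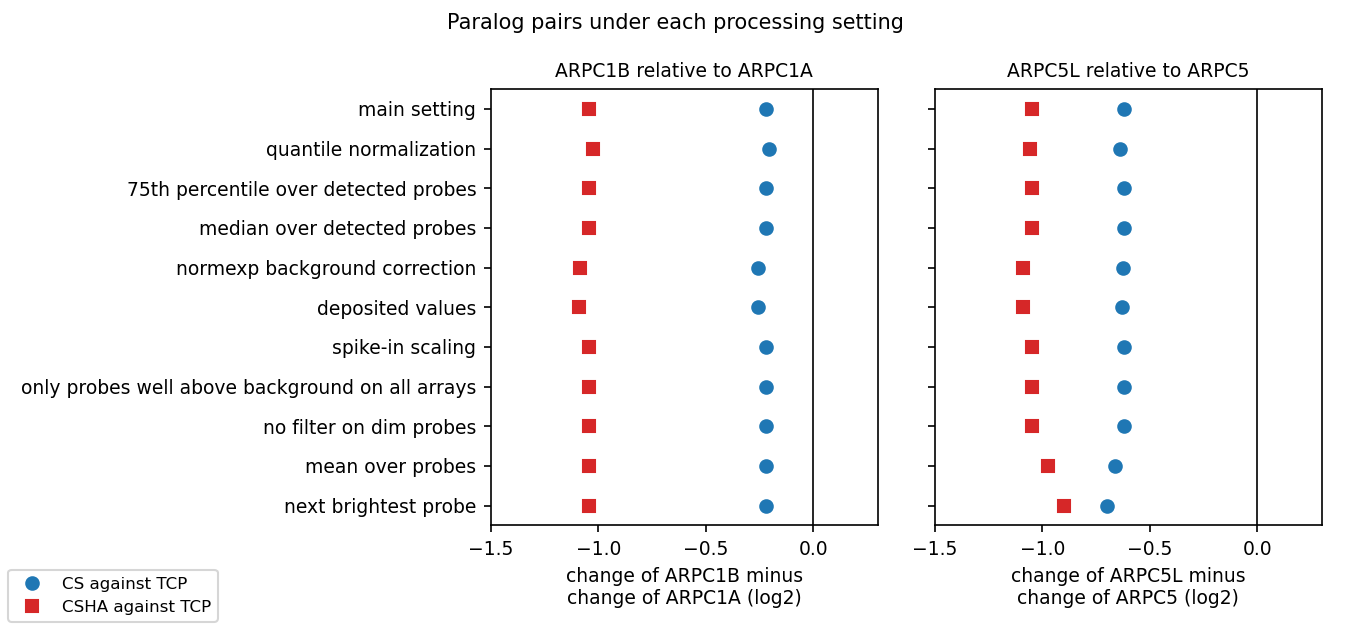
Change of one paralog minus the change of the other (log2) for CS (blue circles) and CSHA (red squares) against TCP, under the main setting and 10 alternatives. Every point lies below 0, with CSHA between -1.09 and -1.03 for ARPC1B relative to ARPC1A and between -1.09 and -0.90 for ARPC5L relative to ARPC5. Settings that shift an array by a constant or filter dim probes cannot move these points. The choice of probe cannot move those of ARPC1B relative to ARPC1A.

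With the percentile shift, cortactin itself differed little on CS, and on CSHA its difference depended on the probe. Its brighter probe was 0.69 higher on CSHA than on TCP with spike-in scaling. The brighter CTTN probe (NM_005231) had signals of 21552 (TCP), 27548 (CS) and 24506 (CSHA), with differences from TCP of 0.10 and 0.25. The second probe (NM_001184740) was dim, at 272, 328 and 250, and its differences were 0.01 and -0.05, inside its spread among spots of 0.16. Only the value of the brighter probe on CSHA was past the software error.

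By the brightest probe and the percentile shift, the members fall into groups by the order of the substrates. ARPC1B and ARPC5L ran from TCP through CS to CSHA, highest first. ARPC2, ARPC3 and CTTN ran the other way, and ACTR2, ACTR3 and ARPC5 were highest on CS and lowest on TCP. ARPC1A was lowest on CSHA and ARPC4 lowest on CS. Neighbours in the order did not differ beyond the spread among spots for CS and CSHA in ACTR3 and ARPC5, for CS and TCP in ARPC1A, and for TCP and CS in ARPC4. The orders of ARPC1B, ARPC5L and ARPC3 were the same under all 10 alternatives. Each of these genes has 1 probe, so the settings of filter and probe could not change their orders. With spike-in scaling all other members were highest on CSHA and lowest on TCP, which changed the order of ACTR2, ACTR3, ARPC1A, ARPC4 and ARPC5. By the second probe, ARPC2 and CTTN ran from CS through TCP to CSHA and ACTR3 from CSHA through TCP to CS. Without ARPC1B and ARPC5L, the other 8 members lay between -0.03 and 0.45 on CS and between -0.12 and 0.37 on CSHA.

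**Figure D4:**
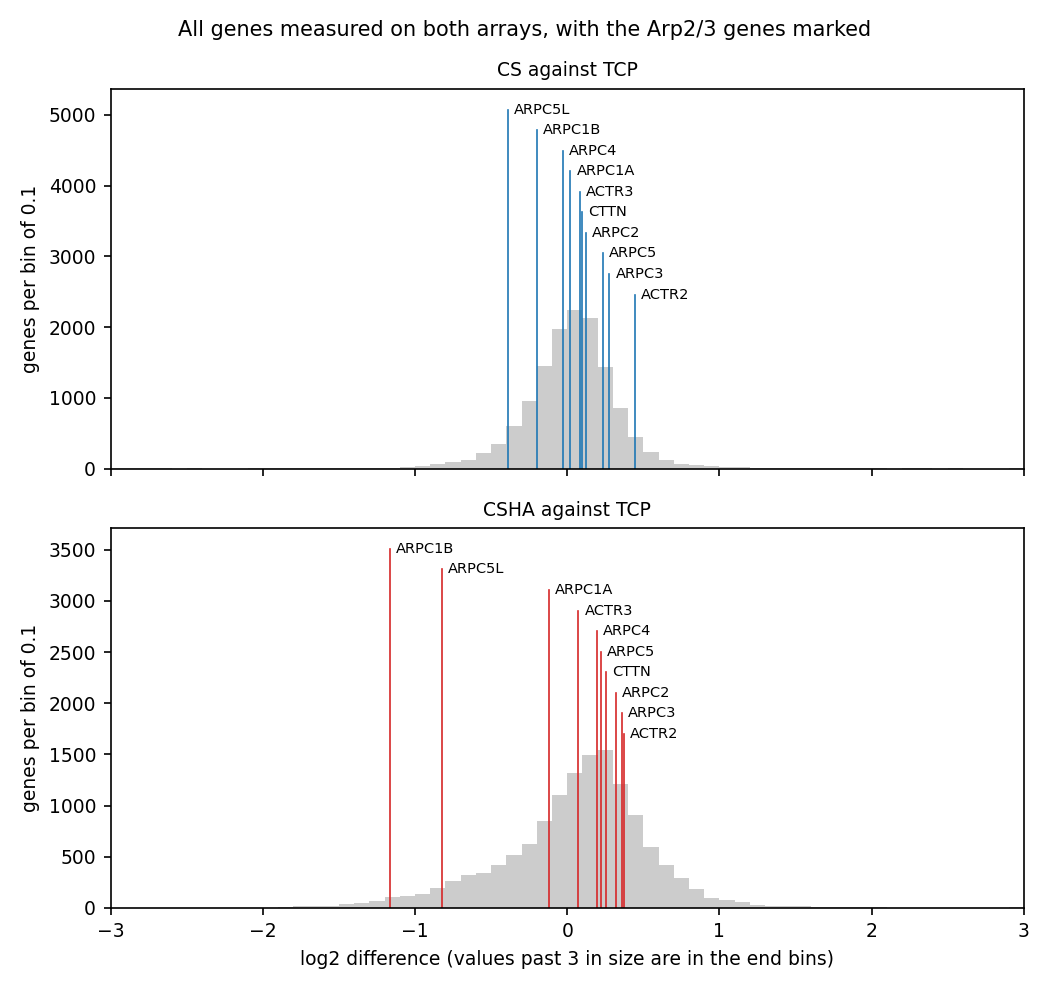
Histogram of the log2 difference from TCP over all genes measured on both arrays (13639 for CS, 13527 for CSHA, bins of 0.1), with vertical lines at the members. On CS the members lie between percentiles 7.60 (ARPC5L) and 94.3 (ACTR2), and on CSHA ARPC1B and ARPC5L stand in its lower tail at percentiles 1.99 and 5.28.

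Genes around the complex were described by lists written from general knowledge, whose counts stand beside those of all genes. Of the genes measured on both arrays, 56.3% exceeded TCP on CS and 61.6% did so on CSHA, with the medians of 0.04 and 0.12 given above. Cortactin has a blood-cell homologue, HCLS1, whose probe failed the background flag on TCP. It was 0.72 higher (log2) on CS and 1.21 higher on CSHA, with signals of 24.8, 48.8 and 54.6. The TCP signal was above the lowest that passed the flag there, 24.1, so these are plain differences and not lower limits. The value on CSHA is past 2-fold, at signals near background. The actin-related paralogs ACTR3B and ACTR3C differed from TCP by 0.27 and -0.36 on CS and by 0.16 and -0.14 on CSHA.

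Of 17 activators of the complex, 16 had a matched probe and 14 were measured. They were 8 higher and 6 lower on CS with a median of 0.11, and 11 higher and 3 lower on CSHA with a median of 0.32. The highest on both membranes was WASHC3, a subunit of the endosomal WASH complex, at 0.49 and 0.77. The lowest was WAS on CS, at -0.48, and NCKIPSD on CSHA, at -0.95. WAS had low signals, 95.9 on TCP and 82.2 on CS. Between the membranes WIPF2, a WASP-binding protein, was highest on CSHA relative to CS, at 0.57. None of the 14 was past 2-fold.

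The WAVE complex, which passes the signal of Rac to Arp2/3, had 7 of 8 listed subunit genes measured. Paralogs are among them, and the WASF genes were counted with the activators. On CS 4 were higher and 3 lower with a median of 0.03, and on CSHA 5 were higher and 2 lower with a median of 0.19. CYFIP2, a Rac-binding subunit, was highest at 0.15 and 0.54, and ABI3 lowest at -0.72 and -0.37. Both were dim, at 49.8 and 40.0 on TCP, where the lowest signal that passed the flag was 24.1. The paralog CYFIP1 had a signal of 5982 on TCP and differed by -0.03 and 0.29. BRK1 was lowest on CSHA against CS, at -0.24. The list held 0 genes past 2-fold.

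Genes that inhibit the complex or take branches apart had 10 of 11 members measured, with 7 higher and 3 lower on either membrane and medians of 0.10 on CS and 0.35 on CSHA. GMFG, a debranching factor of the cofilin fold, had signals that put it 0.85 higher on CS and 1.26 higher on CSHA, past 2-fold, on 1 probe. CORO1A, a coronin of leukocytes, was lowest at -0.39 and -0.70. CORO6 was highest on CSHA against CS, at 0.65. GMFG was the only 1 of the 10 past 2-fold, where 3.02% of all genes compared were 2-fold higher on CSHA.

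Among the 14 GTPases and adaptors upstream, 6 were higher and 8 lower on CS with a median of -0.04, and 9 were higher and 5 lower on CSHA with a median of 0.19. RHOG, a Rac-related GTPase, was -0.33 on CS and -1.41 on CSHA, and CSHA was also past 2-fold lower than CS, at -1.08. RAC2 was highest on CSHA, at 0.78, RAC3 highest on CSHA against CS, at 0.76, NCK1 highest on CS, at 0.28, and BAIAP2 lowest on CS, at -0.37. The switches best known for driving Arp2/3 differed less, CDC42 by 0.20 and 0.35 and RAC1 by -0.08 and 0.02. RHOG, like ARPC1B, rests on 1 probe.

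Nucleators of unbranched filaments, formins and others, had 14 of 18 members compared, 7 higher and 7 lower on CS and 10 higher and 4 lower on CSHA. For the 13 of them measured on both arrays, the medians were -0.03 and 0.30. FMNL1 failed the background flag on TCP, was at least 1.20 higher on CSHA, and was 1.05 higher on CSHA than on CS. Its second probe was not well above background on any array. GRID2IP was highest among those measured on TCP, at 0.41 and 0.70, and FHOD1 was lowest on CS, at -0.30. The signals of GRID2IP were dim, at 48.3 (TCP), 76.7 (CS) and 74.9 (CSHA). DIAPH3 was lowest on CSHA, at -0.33 against TCP and -0.27 against CS.

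Actin itself and the proteins of filament turnover had 24 of 25 members compared, 13 higher and 11 lower on CS with a median of 0.01, and 11 higher and 13 lower on CSHA with a median of -0.13. SSH3, a phosphatase that activates cofilin, was -0.36 on CS and -1.48 on CSHA and past 2-fold lower on CSHA than on CS, at -1.12. LIMK1, the kinase that inactivates cofilin, was lowest on CS at -0.60, was 0.49 on CSHA, and was past 2-fold higher on CSHA than on CS, at 1.09. EVL, of the Ena/VASP family, was highest on both membranes, at 0.72 and 0.55. ACTB differed by -0.27 on CS and 0.20 on CSHA. Both LIMK1 and SSH3 rest on 1 probe each.

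**Figure D5:**
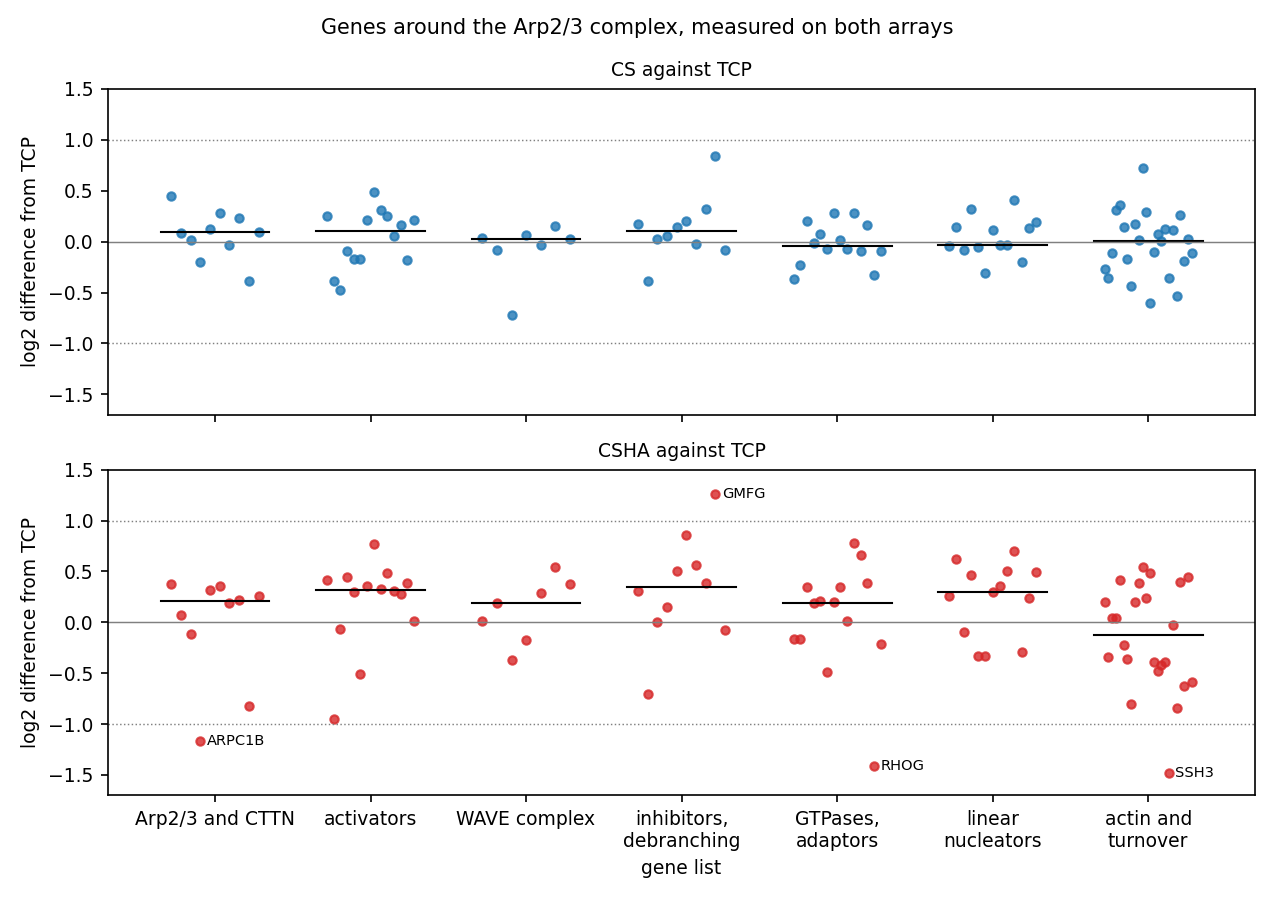
Log2 difference from TCP of each gene of 7 lists measured on both arrays, for CS (top) and CSHA (bottom). Points are genes, black bars are list medians and dotted lines mark 2-fold. On CS no gene is past 2-fold, and on CSHA ARPC1B, RHOG and SSH3 lie below it and GMFG above it.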

How the data were processed

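HT29 cells on TCP, CS and CSHA were compared on 3 arrays, 1 per condition. The authors deposited spot intensities from the Agilent Feature Extraction software, with its flags. They also deposited log2 values, whose differences between arrays matched those of the log2 median signal up to a constant, and these served as an alternative. The file headers name version 10.7.3.1 of the software, where the methods name another. The labels name an RNeasy kit for the RNA, where the methods name TriPure reagent, and the submitters' processing notes name limma.

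Processed signals below 1 would have been set to 1, and from each log2 value that of the array's 75th percentile over probes other than controls was subtracted. Spots flagged as outliers were left out, which removed 31 probes, and spots of a probe were averaged. Of the probes, 29989 matched a RefSeq symbol through their accession and 20579 did not. The brightest probe stood for a gene. A comparison needed a gene to pass the background flag on 1 array or both. Where it passed on 1 alone, the difference was counted as a bound, set on the other array by the dim signal itself or by the lowest signal that passed there, whichever was higher. Where the dim signal was the higher, the value equals the plain difference. With 1 array per condition no test was possible, and a difference of 2-fold or more was counted. A log2 difference is on the log2 scale of intensity, and the number of arrays limits its precision.

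The members and lists were chosen with earlier results of these data known. Named from each list are mainly its genes past 2-fold and its highest and lowest gene in each comparison, and CDC42, RAC1 and ACTB were named after their values were seen. WASHC2A and LYZ were not analysed here. Of the deposited columns, 0 had no sample. The calculation was tested on simulated arrays. Python 3.11.15 (numpy 2.4.6, pandas 2.3.3) and limma 3.58.1 in R 4.3.3 were used.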

Additional observations from a re-analysis of the deposited data

How the results depend on the processing

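Of 300 values of single members under the alternatives, 246 moved within the spread among spots and 54 moved further, and 16 changed sign, 9 of which had been beyond that spread. Of 126 summary values 111 were counted as unmoved and 15 as moved, and 2 changed sign. Medians and contrasts were judged by the spread among spots. Counts of members have no such spread and were judged by whether they were equal or near in ratio. Both totals include values that could not move. The settings that changed the filter on dim probes left all members at their main values. The choice of probe could not change the 6 members with 1 probe. Spike-in scaling moved 21 of 30 member values beyond the spread among spots and the next brightest probe 10 of 30, and each turned 6 signs. The contrast of ARPC1B and ARPC1A moved by less than that spread under quantile normalization, normexp and the deposited values. The other alternatives could not move it. Scaling to the 7 spike-in probes raised the median of all genes to 0.55 for CSHA against TCP and 0.45 for CSHA against CS. It gave member medians of 0.64 and 0.37, 0 members past 2-fold on CSHA against TCP, ARPC1A at 0.32 and 0.24, and ACTR2 at 0.31 for CSHA against CS. Relative to the median of all genes, ARPC1B and ARPC5L lay below in all 11 settings in each comparison. Constant shifts of an array cancel in this relative value. The settings of filter and probe could move only the median of all genes, since both genes have 1 probe. Under quantile normalization ACTR3 was at -0.011 on CSHA against TCP. After normexp the median for CSHA against CS was -0.084, with 1 member past 2-fold. The share of all genes past 2-fold was not counted under spike-in scaling or normexp, so nothing is read from these counts of members.

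With the next brightest probe, the median was 0.016 on CS against TCP, -0.0038 on CSHA against TCP and -0.11 for CSHA against CS. On CSHA against TCP, ARPC2 was then at -0.083 and CTTN at -0.052, on CSHA against CS they were at -0.16 and -0.063, and ACTR3 on CS was at -0.00056. ARPC5L relative to ARPC5 was -0.90 on CSHA against TCP and -0.20 for CSHA against CS. With the mean over probes, the latter was -0.31 and the median on CSHA against TCP was 0.11. At 1.5-fold, 2 members passed on CSHA against TCP and 1 for CSHA against CS, and at 3-fold 0 passed. The shares of all genes past these folds were not counted, so nothing is read from these counts. No paired analysis was possible because each condition had 1 array, and for the same reason no replicate could be left out.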
